A study of Mus musculus with 10 samples.

Results

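Cell cycle and mitosis genes were examined in the abdominal aorta of mice with chronic dermatitis and of control mice. The list held 34 genes with known roles in DNA replication and cell division, and every probe set annotated to 1 gene symbol on the list was taken. A probe set is a group of short DNA probes on the array that together measure 1 transcript. Of the 34 genes, 33 had such a probe set, with 76 probe sets in all, out of 45037 probe sets and 18193 genes on the array. Ccnb1, the gene of the main mitotic cyclin, was not analysed here. Of the 33 genes, 10 act in DNA replication (Mcm2 to Mcm7, Pcna, Rrm1, Rrm2 and Tyms), 20 in mitosis, and Tk1, Stmn1 and Hmgb2 were kept as a group of their own. Where a gene had several probe sets, as 24 did, the one with the highest mean signal stood for it.

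RNA came from 4 WT and 6 KCASP1Tg mice and was hybridised to Affymetrix GeneChip arrays of the mouse genome, 1 per mouse. The mice were 4 months old, the KCASP1Tg mice are described as female, and the tissue is labelled as dechorionated abdominal aorta. KCASP1Tg mice carry human caspase-1, the protease that activates interleukin-1β and interleukin-18, under the keratin 14 promoter of keratinocytes, so the transgene is driven in the epidermis, and the aorta was studied as a distant organ. WT mice were C57BL/6 littermates without the transgene, and the labels give no treatment for either group. The values are signals in arbitrary units of brightness, scaled by the authors to a common trimmed mean, and each array goes by its group and a number (KCASP1Tg 4, for example). All 10 deposited arrays were used.

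Cells that leave quiescence first express the enzymes and clamps of DNA synthesis and then the cyclins, kinases and motors of mitosis. The Mcm proteins form the helicase that opens DNA, Pcna is the sliding clamp of the polymerases, and ribonucleotide reductase (Rrm1 and Rrm2), thymidylate synthase (Tyms) and thymidine kinase (Tk1) supply deoxynucleotides. Cells of the adult arterial wall divide rarely, whereas lymphocytes in lymphoid tissue and blood cell precursors are among the cells that divide often. In the promoters of these genes, E2F sites are typical of replication genes, and the cell cycle genes homology region (CHR), read by complexes built on the MuvB core, is typical of mitotic genes.

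These elements are shown for 6 members on which the results turn or that show both kinds of element. The 160 bases before the transcription start are printed from RefSeq, build GRCm38.p6, 5′ to 3′ on the strand of the gene, at chr2:164769769-164769928 (Ube2c, plus strand), chr7:135716380-135716539 (Mki67, minus), chr4:118437344-118437503 (Cdc20, minus), chr10:69352913-69353072 (Cdk1, minus), chr8:75109349-75109508 (Mcm5, plus) and chr1:128359706-128359865 (Mcm6, minus). All 6 windows lie directly upstream of the first exon. Capitals mark the letters of a CHR (TTTGAA or TTCGAA) or of an E2F element (TTTCCCGC, TTTGGCGC, TTTCGCGC or TTTGCCGC) on either strand, and the E2F letters overlap each other in Mcm5 and Mcm6.
Ube2c: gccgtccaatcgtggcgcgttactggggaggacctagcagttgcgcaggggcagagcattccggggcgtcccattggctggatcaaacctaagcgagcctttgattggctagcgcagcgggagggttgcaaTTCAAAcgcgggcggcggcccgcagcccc
Mki67: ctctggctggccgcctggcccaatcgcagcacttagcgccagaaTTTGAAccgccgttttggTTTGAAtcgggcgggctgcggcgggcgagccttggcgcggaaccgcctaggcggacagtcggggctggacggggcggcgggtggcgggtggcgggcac
Cdc20: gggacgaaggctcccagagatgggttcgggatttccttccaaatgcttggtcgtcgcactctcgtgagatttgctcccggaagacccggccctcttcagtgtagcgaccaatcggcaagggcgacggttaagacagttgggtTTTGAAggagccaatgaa
Cdk1: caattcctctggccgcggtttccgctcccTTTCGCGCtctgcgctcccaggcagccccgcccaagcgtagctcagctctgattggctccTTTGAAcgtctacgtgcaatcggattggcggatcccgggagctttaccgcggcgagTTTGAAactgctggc
Mcm5: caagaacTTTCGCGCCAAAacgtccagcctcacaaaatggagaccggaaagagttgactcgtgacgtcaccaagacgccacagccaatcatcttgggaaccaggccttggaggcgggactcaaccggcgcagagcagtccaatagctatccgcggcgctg
Mcm6: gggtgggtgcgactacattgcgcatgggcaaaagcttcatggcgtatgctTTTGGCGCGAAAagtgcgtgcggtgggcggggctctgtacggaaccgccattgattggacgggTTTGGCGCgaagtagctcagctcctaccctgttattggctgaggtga

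The search was run on both strands from 250 bases before to 50 after the start, which were given for 27 of the 33 members and 27025 genes. CHR letters were found in 13 of 16 mitosis genes (81.2%), in 2 of 9 replication genes (22.2%) and in 19.4% of all genes. The E2F letters were found in 4 of 9 replication genes (44.4%), in 1 of 16 mitosis genes (6.25%), which was Cdk1, and in 2.32% of all genes. With the first T of the E2F letters left off, the shares were 66.7%, 12.5% and 9.69%. CCAAT, the box bound by NF-Y, was found in 8 of 9 replication genes (88.9%), 14 of 16 mitosis genes (87.5%) and 37.9% of all genes. In the window of Birc5 neither the CHR letters nor the longer E2F letters were found. Such a match is a string of letters and not a measured binding site.

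The tissue was checked against markers of the cells it should hold. Acta2, the actin of contractile smooth muscle, was at 35369, 37912, 36738 and 41902 on the WT arrays. On KCASP1Tg 4 Acta2 was 18138, while the other KCASP1Tg arrays lay between 36415 and 42487. The summed signal of 6 smooth muscle markers was 30316 on KCASP1Tg 4 and at least 66748 elsewhere. KCASP1Tg 4 also had the highest signal of every measured marker of B cells (5 of 5), T cells (4 of 4), lymph node stroma and vessels (4 of 4) and neutrophil precursors (5 of 5). In these bulk samples, fewer cells of a type and less RNA per cell cannot be told apart. Because KCASP1Tg 4 stood apart, the main counts and differences are given with and without it.

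No cell cycle member differed between KCASP1Tg and WT aorta over the 10 arrays by limma at an adjusted p under 0.05. Of the 33 genes, 20 reached a signal of 100 on 4 or more arrays and were tested, 9 for replication, 9 for mitosis and 2 of the remaining group. Among these 20, 0 were higher and 0 lower, beside 18 higher (0.0686%) and 0 lower (0%) of 26242 probe sets tested. At an unadjusted p under 0.05, limma gave 2 higher, Ube2c and Nusap1, and 0 lower, beside 4.52% and 3.42% of all probe sets tested. The exact Mann-Whitney test on all 33 genes gave 3 higher (Ube2c, Birc5 and Nusap1) and 0 lower before adjustment, beside 4.23% and 2.92% of all genes. After adjustment over the tested probe sets it gave 0. Its p cannot fall below 0.00952 with 4 against 6 arrays, so passing would need very many fully separated probe sets. Without KCASP1Tg 4 that test gave 2 higher, Ube2c and Birc5, and 0 lower before adjustment, beside 3.42% and 2.34% of all genes. The fitted differences nevertheless leaned upward, with a positive log2 fold change in 26 of 33 members against 49.7% of all genes, and with a median of 0.34 against -0.0015. Members were measured on the same mice and are not independent, so this count is a description and not a test.

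**Figure D1:**
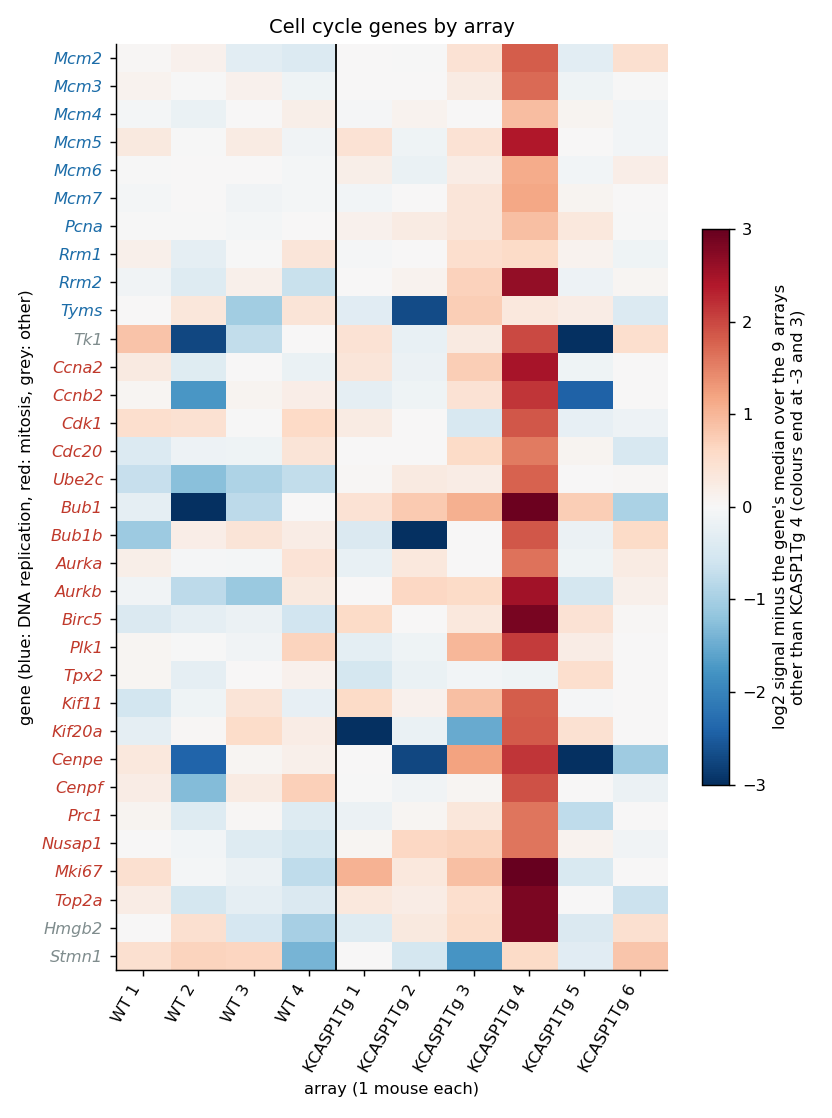
Heat map of the 33 members (rows, by role) over the 10 arrays (columns, 4 WT and 6 KCASP1Tg), each cell coloured by the log2 signal minus the gene's median over the 9 arrays other than KCASP1Tg 4, with colours ending at -3 and 3. KCASP1Tg 4 has the highest value in 30 of the 33 genes, and the other columns lie near 0 for most genes.

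KCASP1Tg 4 stood out among the arrays. It had the highest of the 10 signals in 30 of 33 members (90.9%), against 19.8% of all genes and 21.5% of those past the signal filter, and the exceptions were Tyms (highest on KCASP1Tg 3), Tpx2 (KCASP1Tg 5) and Stmn1 (KCASP1Tg 6). Its signal was over 2 times the median of the other 9 arrays in 27 of 33 members (81.8%), against 9.95% of all genes and 5.61% of those past the signal filter. Over all 76 probe sets of the members, KCASP1Tg 4 was highest in 58. Without this array the median log2 fold change was 0.07 in place of 0.34, against -0.0010 for all genes, while 23 of 33 were still positive, against 49.9% of all genes. Since the 33 genes share the same mice, this count too is only a description.

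The high signals of KCASP1Tg 4 went with signals of other cell types. The summed signal of B cell markers (5 genes, Ms4a1 and Cd22 the brightest) was 12736 on KCASP1Tg 4, against 527 to 1075 on the WT arrays and 563 to 1901 on the other KCASP1Tg arrays. That of T cell markers (4 genes, with Cd3d and Cd3g) was 4712, against 173 to 433 and 219 to 647. For lymph node stroma and vessels (4 genes) it was 24570, nearly all of it Glycam1, a mucin of lymph node venules, at 22908. Neutrophil precursor markers (5 genes, with Prtn3 and Mpo) summed to 2991, against 330 to 383 and 333 to 492. Erythroid markers were lower on KCASP1Tg 4, at 1002, than on the other KCASP1Tg arrays, at 3612 to 7205. Germinal centre markers summed to 995 on KCASP1Tg 4, within the 618 to 1026 of the WT arrays. The mean log2 signal of the same list was 6.73 on KCASP1Tg 4, the highest of all arrays. It was 5.56 to 5.75 on the WT arrays and 5.25 to 6.69 on the other KCASP1Tg arrays. Of these 5 genes, Rgs13 (114 against at most 34.7 elsewhere) and S1pr2 (309 against at most 300.3) had their highest signal there, and Fas, Gcsam and Mef2b did not. Markers of mature neutrophils (Mmp9, Csf3r and others, 2438 on KCASP1Tg 4 against at most 1154 elsewhere) and macrophages (Csf1r, C1qa and others, 20545 against at most 15866) were also highest there, and fibroblast markers (Dcn, Col1a2 and others, 36357 against at least 43595) were lowest. Heart muscle markers (Actc1, Myh6 and others) summed to 58515 on WT 4, 29566 on KCASP1Tg 1 and 16759 on KCASP1Tg 2. On the other arrays they summed to 472 to 3207. With KCASP1Tg 4 left out, WT 4, KCASP1Tg 1 and KCASP1Tg 2 were highest in 4, 3 and 2 of 33 members (12.1%, 9.09% and 6.06%). Over all genes the shares were 18.6%, 6.39% and 7.88%. The part of these cell types in the high cell cycle signals was not tested.

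The DNA replication genes stood out less than the mitosis genes on KCASP1Tg 4, and 9 of the 10 passed the signal filter. Of the 10, KCASP1Tg 4 was highest in 9 and over 2 times the median of the other arrays in 6. Mcm5, a helicase subunit, had signals of 252, 204, 245 and 192 on the WT arrays, and its KCASP1Tg signals had a lowest value of 188, a median of 240 and a highest of 1077, on KCASP1Tg 4. The groups overlapped, and without that array the log2 fold change went from 0.40 to 0.02 (95% CI -0.34 to 0.38, limma).

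The other helicase subunits behaved in the same manner. The signal of KCASP1Tg 4 stood at 1101 for Mcm2, 650 for Mcm3, 973 for Mcm4, 1197 for Mcm6 and 2596 for Mcm7, while the other 9 arrays ranged from 237 to 435, 182 to 237, 443 to 576, 479 to 639 and 1077 to 1507. Their log2 fold changes over 10 arrays were between 0.19 and 0.54 (adjusted p from 0.784 to 0.915), and without KCASP1Tg 4 between 0.01 and 0.26.

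The remaining replication genes were less uniform. Rrm2, the regulated subunit of ribonucleotide reductase, had WT signals of 114, 93.5, 135 and 76.6 and a KCASP1Tg range of 110 to 763 with a median of 129. On this brightest probe set KCASP1Tg 4 was the highest, at 6.23 times the median of the other arrays, and the groups overlapped (log2 fold change 0.81, SE 0.50, adjusted p = 0.756 by limma, and 0.40 without KCASP1Tg 4). Rrm1, the large subunit, which is less tied to S phase, was at 748 on KCASP1Tg 4, only 1.49 times the median of the other arrays. Pcna had WT signals of 3458, 3430, 3321 and 3462 and a KCASP1Tg range of 3414 to 6433 with a median of 4190. On 5 of the 6 KCASP1Tg arrays Pcna lay above all WT arrays, and KCASP1Tg 6, at 3414, did not. Its log2 fold change was 0.34 (95% CI -0.02 to 0.69, adjusted p = 0.665) with all arrays and 0.22 (95% CI -0.01 to 0.45, adjusted p = 0.616) without KCASP1Tg 4. Tyms was dim, at 29.7 to 79.9 in WT and 9.44 to 102 in KCASP1Tg, and was not tested by limma.

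**Figure D2:**
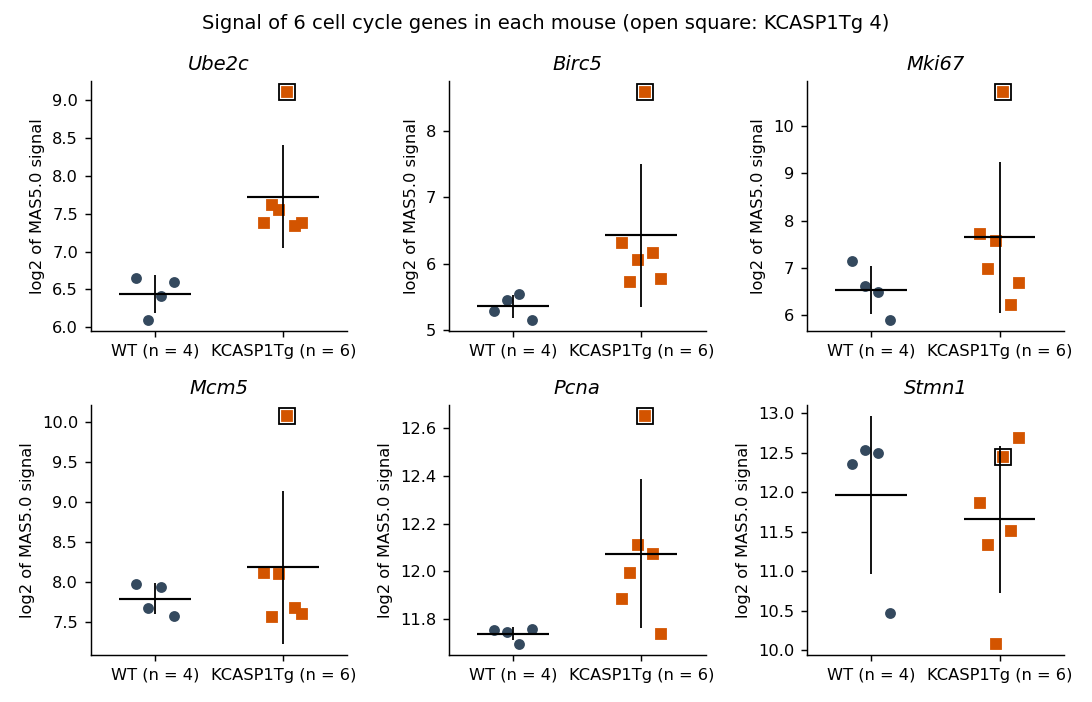
Signal of Ube2c, Birc5, Mki67, Mcm5, Pcna and Stmn1 in each mouse (points, log2 of the MAS5.0 signal, KCASP1Tg 4 with an open square), with the group mean as a horizontal line and its SD as a vertical bar. Ube2c and Birc5 lie higher on each of the 6 KCASP1Tg arrays than on any WT array, Mki67 and Mcm5 are far higher on KCASP1Tg 4 than on any other array, and Stmn1 is lowest on KCASP1Tg 3 and WT 4.

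The mitosis genes passed the signal filter less often, 9 of 20, and stood out on KCASP1Tg 4. All 20 reached a signal of 100 on KCASP1Tg 4, against 4 to 9 of the 20 on each of the other 9 arrays, while the share of all genes reaching 100 was 67.9% on KCASP1Tg 4 and 64.8% to 67.5% on the others. KCASP1Tg 4 was highest in 19 of the 20 genes and over 2 times the median of the other arrays in 19, the exception to both being Tpx2. The median excess of KCASP1Tg 4 over the median of the other 9 arrays was 1.88 on the log2 scale for mitosis genes (range -0.13 to 4.03) and 1.14 for replication genes (range 0.31 to 2.64), against -0.01 for all genes. The mean log2 signal of the 20 genes was 8.29 on KCASP1Tg 4, against 5.62 to 6.23 on the WT arrays and 5.88 to 6.60 on the other KCASP1Tg arrays. For the 10 replication genes it was 9.90, against 8.45 to 8.58 and 8.29 to 8.95. The classes differ in how many genes passed the signal filter, and the part of that in the gap between 1.88 and 1.14 was not tested.

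**Figure D3:**
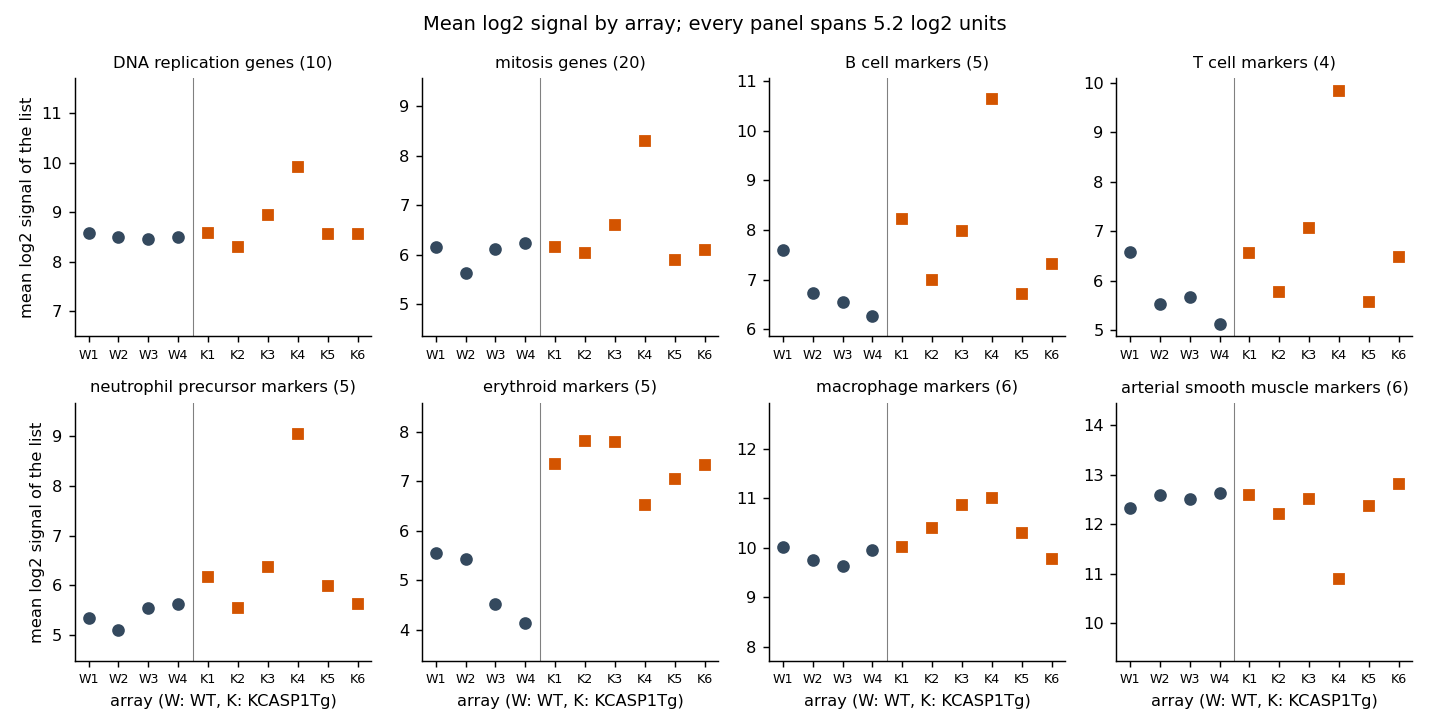
Mean log2 signal of the replication and mitosis members and of markers of B cells, T cells, neutrophil precursors, erythroid cells, macrophages and smooth muscle on each of the 10 arrays (W for WT, K for KCASP1Tg), every panel spanning the same number of log2 units. Both member classes, the lymphoid lists and the neutrophil precursor list peak on KCASP1Tg 4, and smooth muscle is lowest there. Erythroid markers lie higher on every KCASP1Tg array than in WT, and least so on KCASP1Tg 4.

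Mki67, the gene of the proliferation marker Ki-67, showed the largest excess on KCASP1Tg 4. Its WT signals were 141, 97.6, 90.3 and 59.9, and the KCASP1Tg signals had a lowest value of 74.7, a median of 159 and a highest of 1674. KCASP1Tg 4 was thus 16.4 times the median of the other arrays, and the other KCASP1Tg arrays overlapped with WT. The log2 fold change was 1.11 (SE 0.74, adjusted p = 0.785) and 0.50 without that array (adjusted p = 0.793). Top2a, the topoisomerase that untangles chromosomes, was at 987 on KCASP1Tg 4 and at 89.0 to 198 elsewhere. Ccna2, the cyclin of S phase and G2, was at 711 there and at 99.7 to 214 elsewhere.

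Cdk1, the kinase that drives entry into mitosis, had 360 on KCASP1Tg 4, but its other KCASP1Tg signals lay low. WT signals were 141, 136, 97.8 and 150, and the KCASP1Tg signals had a lowest value of 71.5 and a median of 94.4. Of the KCASP1Tg arrays other than KCASP1Tg 4, only KCASP1Tg 1 (118) and KCASP1Tg 2 (99.2) reached the WT range. The log2 fold change was -0.18 (SE 0.40, adjusted p = 0.973) with all arrays and -0.51 (95% CI -0.90 to -0.11, adjusted p = 0.441) without KCASP1Tg 4, which was the only fall among the members at an unadjusted p under 0.05 there, beside 3.41% of all probe sets tested. Cdk1 was therefore not called in either fit.

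Among the kinases and the spindle checkpoint, most probe sets were too dim on the other arrays to be tested. Aurka and Plk1, kinases of the spindle poles, were at 235 and 207 on KCASP1Tg 4 and at no more than 99.8 and 96.5 elsewhere. Aurkb, the kinase of the chromosomal passenger complex, was at 231 on KCASP1Tg 4 and at 18.8 to 61.9 elsewhere. Bub1 and Bub1b, which hold back anaphase, were at 163 and 298 on KCASP1Tg 4 and no higher than 44.1 and 123 on the other arrays. Bub1 had a log2 fold change of 1.85, and of 1.43 without KCASP1Tg 4, from dim WT signals of 17.5, 2.63, 12.2 and 21.2, and its groups overlapped at KCASP1Tg 6 (exact Mann-Whitney p = 0.0667). That value depended on the lowest signals, since it was 1.19 with a floor of 16, 0.58 with a pseudocount of 50 and 1.19 without WT 2, and a second, dimmer probe set of Bub1 gave -0.31.

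The motors, kinetochore proteins and spindle proteins followed the same arrangement, with the brightest probe set of Tpx2 apart. Kif11, the motor that separates the spindle poles, was at 153 on KCASP1Tg 4 and at 30.0 to 82.0 elsewhere, and Kif20a, a motor of cytokinesis, at 107 and at 2.94 to 43.5. Cenpe and Cenpf, proteins of the kinetochore, were at 167 and 224 on KCASP1Tg 4 and at no more than 87.4 and 98.4 elsewhere. Prc1, which bundles the midzone microtubules, was at 366 and at 70.6 to 153 elsewhere, and Ccnb2, a mitotic cyclin, at 354 and at 14.9 to 107. Tpx2, the activator of Aurka, was at 134 on KCASP1Tg 4, 0.913 times the median of the other arrays. A second probe set of Tpx2, too dim to be tested, had 185 on KCASP1Tg 4 and 25.4 to 66.0 elsewhere. Another dim one had 81.3 there and 3.35 to 53.3 elsewhere. The remaining one, which was tested, was at 1.19 times the median of the other arrays, so the probe sets of this gene differed.

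By their brightest probe sets, Ube2c and Birc5 were the only members higher on every KCASP1Tg array than on any WT array. These were 2 of 33 (6.06%) beside 1.8% of all genes, and 0 were lower on every one, beside 0.94%. Both were so with and without KCASP1Tg 4. Without it the share of all genes was 2.22%, with 0 members lower throughout beside 1.26%. A second probe set of Rrm2, too dim to be tested by limma, also lay above WT throughout, with and without KCASP1Tg 4. It had 56.2 to 63.0 in WT and 75.7 to 409 in KCASP1Tg, while the other probe sets of Rrm2 overlapped. Over all 76 probe sets of the members, 3 lay above WT throughout (3.95%) and 0 below. Ube2c, the ubiquitin-conjugating enzyme that works with the anaphase-promoting complex, was measured by 1 probe set. Its WT signals were 100.4, 68.4, 85.3 and 97.2, with a mean of 87.8 ± 14.5 (SD, n = 4). The KCASP1Tg signals were 166, 195, 188, 550, 162 and 166 on KCASP1Tg 1 to KCASP1Tg 6, and without KCASP1Tg 4 their mean was 176 ± 15.1 (SD, n = 5). Those 5 arrays lay close together and well above WT.

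By limma over 10 arrays, Ube2c had a log2 fold change of 1.29 (SE 0.33, 95% CI 0.56 to 2.01, adjusted p = 0.274), which was not called. Without KCASP1Tg 4 the log2 fold change was smaller, 1.01 (95% CI 0.71 to 1.31), and passed at an adjusted p = 0.0180, and 1 member was then called higher and 0 lower, beside 0.236% and 0.0309% of all probe sets. At an unadjusted p under 0.05, 2 members were then higher, Ube2c and Nusap1, beside 4.98% of all probe sets. With limma array weights Ube2c passed as well (1.09, adjusted p = 0.0290). That fit gave KCASP1Tg 4 the lowest weight (0.281), so it is not separate from leaving that array out. It called 204 probe sets higher, against 18 with equal weights. Over the leave-one-out fits the adjusted p of Ube2c by limma ran from 0.0180 to 0.628. Ube2c entered the test mostly through the KCASP1Tg arrays, since only 1 of the 4 WT signals reached 100, and at a signal filter of 200 it was not tested. Erythroid markers also separated the groups, with summed signals of 379 to 983 in WT, 1002 on KCASP1Tg 4 and 3612 to 7205 on the other KCASP1Tg arrays. Their part in the difference of Ube2c was not tested.

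Birc5, the gene of survivin, a subunit of the chromosomal passenger complex, was dim. Its WT signals were 39.2, 43.9, 46.7 and 35.7, and its KCASP1Tg signals ranged from 53.0 over a median of 68.8 to 381 on KCASP1Tg 4. All 6 lay above the 4 WT signals, which gave the smallest p that the exact Mann-Whitney test allows for 4 against 6, 0.00952. Only KCASP1Tg 4 reached 100, so limma did not test it, and with no filter on signals its log2 fold change of 1.07 had an adjusted p of 0.775.

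Nusap1 and Cdc20 lay between these patterns. Nusap1, a spindle protein that binds microtubules, had WT signals of 111, 105, 85.0 and 77.1 and a KCASP1Tg range of 102 to 339 with a median of 145. Of the KCASP1Tg arrays, only KCASP1Tg 6 fell within the WT range (log2 fold change 0.74, adjusted p = 0.580, and 0.51 and 0.492 without KCASP1Tg 4). Cdc20, the activator of the anaphase-promoting complex, was at 485 on KCASP1Tg 4 and at 118 to 246 elsewhere, and its log2 fold change went from 0.37 to 0.12 without that array.

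**Figure D4:**
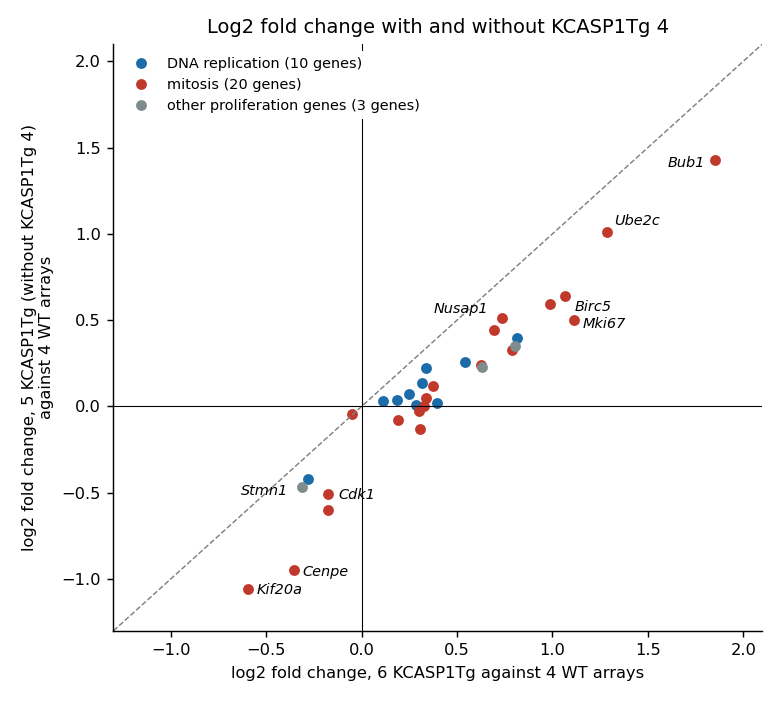
Log2 fold change (KCASP1Tg minus WT) of the 33 members with all 10 arrays (horizontal) and without KCASP1Tg 4 (vertical), 1 point a gene, coloured by class, with a dashed line where both are equal. All points but that of Tpx2 lie below the dashed line, Ube2c keeps a value of 1.01, and Mcm5 and most replication genes drop to near 0.

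Of the remaining genes, Hmgb2 followed the proliferation genes and Stmn1 did not. Hmgb2, a chromatin protein abundant in dividing cells, was at 1842 on KCASP1Tg 4 and at 131 to 380 elsewhere (log2 fold change 0.80, adjusted p = 0.814, and 0.35 without that array). Tk1 was at 243 on KCASP1Tg 4 and at 7.24 to 112 elsewhere. Stmn1, the gene of stathmin, which destabilizes microtubules and is also made by cells that do not divide, such as neurons, had WT signals of 5251, 5938, 5793 and 1425. Its KCASP1Tg signals had a lowest value of 1088, on KCASP1Tg 3, a median of 3333 and a highest of 6607, on KCASP1Tg 6. WT 4 and KCASP1Tg 3 thus had the lowest signals of Stmn1, and these arrays also stood together on the first principal component of all tested probe sets.

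KCASP1Tg 3 was the next highest array for the members. With KCASP1Tg 4 left out, it was highest in 18 of 33 members (54.5%), against 17.1% of all genes. It exceeded the median of the other 8 arrays in 10 of 10 replication genes and 15 of 20 mitosis genes, against 54.1% of all genes. The excess was small, with a median of 0.41 on the log2 scale for replication genes and 0.60 for mitosis genes, against 0.04 for all genes. For Mcm7, for example, KCASP1Tg 3 had 1507 and the other arrays without KCASP1Tg 4 had 1077 to 1235.

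Further genes of the cell cycle were counted from lists drawn up by role. Of 28 tested genes of the replication machinery other than the members, 0 were called by limma and 1, Uhrf1, which maintains DNA methylation after replication, was higher at an unadjusted p under 0.05, beside 4.52% of all probe sets tested (log2 fold change 1.18, SE 0.43, adjusted p = 0.505, and 0.90 without KCASP1Tg 4). Of 20 tested further mitosis genes, 0 were called and 1, Cdca3, was higher at that unadjusted threshold, beside the same 4.52% (0.88, adjusted p = 0.554, and 0.61 without KCASP1Tg 4). Uhrf1 and Cdca3 entered the test mostly through the KCASP1Tg arrays, since for each only 1 of the 4 WT signals reached 100. Incenp, the scaffold of the chromosomal passenger complex, lay above WT on every KCASP1Tg array (0.54, adjusted p = 0.677, and 0.33 without KCASP1Tg 4). It was the only 1 of the 42 measured genes of that list to do so (2.38%), beside 1.8% of all genes. The next smallest p-values belonged to Slbp, which binds histone mRNA (0.30, adjusted p = 0.654), Gins1, a helicase partner (0.31, adjusted p = 0.678), and Cenpn of the centromere (0.38, adjusted p = 0.781). KCASP1Tg 4 was highest in 21 of 31 measured genes of the replication list (67.7%) and in 37 of 42 of the mitosis list (88.1%), against 19.8% of all genes. Its median excess was 0.79 and 1.38 on the log2 scale, against -0.01 for all genes.

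Regulators gave a mixed picture. Of 9 tested genes of the transcription of cell cycle genes, 0 were called and 1, E2f2, an E2F activator, was higher at an unadjusted p under 0.05, beside 4.52% of all probe sets tested. E2f2 had WT signals of 78.0, 83.2, 78.8 and 135 and a KCASP1Tg range of 148 to 251 with a median of 180, so the groups did not overlap (log2 fold change 1.04, SE 0.20, adjusted p = 0.120, and 0.96 and 0.108 without KCASP1Tg 4). E2f2 was the only 1 of the 14 measured genes of its list above WT throughout (7.14%), beside 1.8% of all genes. Without WT 4, KCASP1Tg 3 and KCASP1Tg 4 together E2f2 passed by limma (1.06, adjusted p = 0.0165). That set of arrays was chosen after the data were seen, and its fit called more probe sets than the main fit. Only 1 of the 4 WT signals of E2f2 reached 100. The part of the erythroid markers in its difference was not tested. The pocket proteins Rb1 (-0.17, adjusted p = 0.827) and Rbl1 (0.22, adjusted p = 0.900) came next in that list. Of 9 tested G1 cyclins and kinases, 0 were called and 0 passed the unadjusted threshold. KCASP1Tg 4 was highest in 8 of the 10 measured genes of that list (80%), against 19.8% of all genes. Its median excess there was 0.57 on the log2 scale, against -0.01 for all genes. It was over 2 times the median of the other arrays in 2 of the 10 (20%), against 9.95% of all genes. The smallest p-values there belonged to Ccnd3 (0.24, adjusted p = 0.676), Ccne1 (0.44, adjusted p = 0.786) and the phosphatase gene Cdc25a (0.26, adjusted p = 0.804). Of 12 tested inhibitors and quiescence genes, 0 were called, while 2 had a higher and 2 a lower signal in KCASP1Tg before adjustment, beside the same 4.52% and 3.42%. Cdkn1a, the gene of the inhibitor p21, had WT signals of 597, 519, 646 and 927 and a KCASP1Tg range of 670 to 2520 with a median of 1694. Only KCASP1Tg 6 overlapped with WT (log2 fold change 1.23, SE 0.35, adjusted p = 0.362, and 1.11 without KCASP1Tg 4). Cdkn1c, the gene of p57, was lower on every KCASP1Tg array than on any WT array (-0.39, adjusted p = 0.496, and -0.30 without KCASP1Tg 4). It was the only 1 of the 13 measured genes of its list to be so, beside 0.94% of all genes. Btg2, an antiproliferative gene, was at 0.38 on the log2 scale (adjusted p = 0.514).

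Members with several probe sets were compared among them. Further probe sets of Mcm5, Mcm6, Tyms, Top2a, Bub1, Bub1b, Tpx2, Cenpe, Cenpf, Nusap1 and Cdc20 had a log2 fold change of the opposite sign or more than 1 away. All but 1 of them, of Tpx2, were too dim to be tested. Examples were a probe set of Tyms at -2.67, with no signal above 35.2, 1 of Bub1 at -0.31, with none above 38.5, and 1 of Mcm6 at -1.88, with none above 35.0. The second probe set of Bub1b (1.38) had 223 on KCASP1Tg 4 and at most 57.9 elsewhere.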

How the data were processed

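RNA of the abdominal aorta of 4 WT and 6 KCASP1Tg mice was hybridised to GeneChip arrays of the mouse genome, 1 array per mouse. The deposited values are signal intensities that the authors computed with MAS5.0, which corrects for background and mismatch probes, and scaled globally to a trimmed mean target of 500. The value per gene is thus relative to the rest of its array, and low signals are noisy. The labels give 100 ng of RNA for labelling and the methods give 250 ng. Deposited intensities under 1 were raised to 1 before taking log2, as the authors did. Of 45101 probe sets, 64 controls were left out, 34945 had 1 gene symbol, 932 several and 9160 none. Symbols were updated by gene identifier (34741) or kept (204).

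The 26242 probe sets that reached a signal of 100 on 4 or more arrays entered limma 3.58.1 in R 4.3.3, with genotype as the term and Benjamini-Hochberg adjustment over all of them. Exact two-sided Mann-Whitney tests were run beside it. The limma p-values set the difference between genotypes against the spread between mice, and the Mann-Whitney p-values rest on the ranks of the mice. Precision is limited by the few arrays, and detection calls were not used here. The methods speak of 8 mice, and all 10 arrays were used. A simulation of 26242 probe sets recovered 56% and 96% of those changed by 1 and 2 on the log2 scale. In it, 10 of 186 calls were false (5.4%). Whether these shares hold for arrays as uneven as KCASP1Tg 4 (limma array weight 0.281) and WT 4 (0.376) was not tested. Every member is named by its brightest probe set, further probe sets where their log2 fold change has another sign or differs by more than 1, of each pathway list the 3 genes with the smallest limma p, and of each marker list the 2 brightest. Rgs13, Gcsam, Mef2b, Glycam1 and the second and other probe sets were singled out after their values were seen where they fall outside that rule. The members and lists were chosen with earlier results of these data known. Alternatives covered floor, pseudocount, filter, scaling, trend, array weights, block, leave-one-out, the rank test and the probe set rule. Leaving out WT 4, KCASP1Tg 3 and KCASP1Tg 4 together was chosen after seeing the data. Promoters were taken from RefSeq windows (GRCm38.p6), the first listed start per gene, and figures were drawn with matplotlib 3.10.9.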

Additional observations from a re-analysis of the deposited data

Results flagged for a closer look

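Groups were searched for 1 array far from the rest, by the gap to its nearest neighbour as a share of the group's range of log2 signals. Of 72 groups, 23 had such an array, and in 18 of these 23 KCASP1Tg 4 was the highest KCASP1Tg array. For a single group chance gives about 1 in 20. The groups share the same arrays and are not independent, so the count of 23 cannot be set against that rate. For replication genes the gap share was 0.628 for Mcm2, 0.799 for Mcm3, 0.822 for Mcm4, 0.780 for Mcm5, 0.685 for Mcm6, 0.631 for Mcm7 and 0.701 for Rrm2. For mitosis genes it was 0.665 for Mki67, 0.667 for Top2a, 0.659 for Ccna2, 0.687 for Cdk1, 0.714 for Aurka, 0.796 for Birc5, 0.889 for Cenpf and 0.849 for Ube2c. It was 0.699 for Hmgb2, 0.704 for the mean log2 signal of the mitosis genes and 0.704 for that of all members. In the other KCASP1Tg group, Tyms was lowest on KCASP1Tg 2 (0.661).

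Of the WT groups, 4 had an array far below the rest, which was WT 2 for Ccnb2 (0.927) and Cenpe (0.907), WT 1 for Bub1b (0.873) and WT 4 for Stmn1 (0.914). Ccnb2 was 23.9 on WT 2 and 83.2 to 91.8 on the others, and Stmn1 was 1425 on WT 4 and 5251 to 5938 on the others.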

How the results depend on the processing

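Ube2c was the 1 member called under limma array weights, without KCASP1Tg 4, and without WT 4, KCASP1Tg 3 and KCASP1Tg 4 together (log2 fold change 1.04, adjusted p = 0.0472), and leaving out single arrays gave 0 to 1 members higher. Of all probe sets, 18 were higher and 0 lower. Array weights gave 204 and 63, and leaving out those 3 arrays 61 and 12. Leaving out single arrays gave 10 to 61 higher and 0 to 8 lower. With the replicate number as a block 0 probe sets were higher. The exact Mann-Whitney test gave 0 after adjustment, but its smallest possible p made this nearly certain, so it is no check here. Lower probe sets numbered 1 with a floor of 16 or quantile normalization, 2 with a pseudocount of 50, no filter or median centring, and 3 with a filter of 200 or an intensity trend.

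Of the tested members, log2 fold changes turned sign with array weights for Mcm3 (-0.0063), Tpx2 (0.0054) and Prc1 (-0.0891), with the block for Cdk1 (0.0258), with the mean of probe sets for Mcm6 (-0.44), without KCASP1Tg 1 for Tpx2 (0.0398, range over single arrays -0.1669 to 0.0398) and without KCASP1Tg 3 for Stmn1 (0.0044, range -0.8068 to 0.0044). Without WT 4, KCASP1Tg 3 and KCASP1Tg 4 they were -0.10 for Mcm3, -0.12 for Mcm5, 0.0142 for Tpx2, -0.13 for Prc1 and -0.0083 for Hmgb2. Members too dim for limma turned sign too, by less than their SD between mice. These were Cenpe with a floor of 16 (0.15), a pseudocount of 50 (0.12), the mean of probe sets (0.09) or without KCASP1Tg 2 (0.03) or KCASP1Tg 5 (0.38), Bub1b with that pseudocount (0.06), the mean of probe sets (0.22) or without KCASP1Tg 2 (0.44), Tyms without KCASP1Tg 2 (0.18), Ccnb2 (-0.16), Cenpf (-0.12) and Tk1 (-0.07) without WT 2, Ccnb2 (-0.13), Cenpf (-0.02) and Aurka (-0.08) without KCASP1Tg 4, and Ccnb2 (-0.17) and Plk1 (-0.03) without the 3 arrays. The cause was not tested. The median over the replication genes ran from 0.05 to 0.36 and over the mitosis genes from 0.09 to 0.64 as single arrays were left out. The replicate numbers did not pair the mice, which are different animals (correlation of deviations 0.108, -0.314, -0.435 and -0.326 for numbers 1 to 4), and the block called 0 members. Signals near background limit what can be read from the mitosis genes, of which 9 of 20 were bright enough to be tested.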
